A study of Mus musculus with 6 samples.

Results

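The receptors that use gp130 and those of the interleukin-12 (IL-12) family were examined as a set of 8 genes of the 26286 in the deposited count tables. The genes were selected by symbol: Il6st, Il6ra, Il27ra, Il12rb1, Il12rb2 and Il23r, which code for receptor chains, and Ebi3 and Il12a, which code for cytokine chains. RNA was measured in CD4+ CD25high regulatory T cells (Treg) of C57BL/6 mice with a Blimp1/GFP reporter, sorted from pooled spleens and lymph nodes into GFP+ and GFP- cells. The sample titles name the animals BlimpHet, and both populations came from such reporter mice. The sources used here do not give the number, age or sex of the mice behind a pool. GFP marks activity of the locus of Blimp-1, a transcriptional repressor that effector T cells and plasma cells are known to use. Since both populations came from reporter mice, both carry the reporter allele. There were 3 GFP+ libraries (replicate 19 by poly(A) selection, replicates 1 and 4 by a single-cell protocol that amplifies small amounts of RNA) and 3 GFP- libraries (replicate 20 by poly(A) selection, replicates 2 and 5 by the single-cell protocol).

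As background, gp130, the product of Il6st, is the signalling chain shared by IL-6, IL-11, IL-27, LIF, oncostatin M and related cytokines. Il6ra codes for the chain that binds IL-6 and hands it to gp130, and Il27ra codes for the chain that pairs with gp130 to form the IL-27 receptor. The IL-12 family is built from shared parts in the same way. Il12rb1 joins Il12rb2 in the receptor of IL-12 and Il23r in the receptor of IL-23. Ebi3 is the soluble receptor-like chain of IL-27 and, with the p35 chain made from Il12a, of IL-35, a cytokine that mouse Treg are known to secrete. The receptors act through JAK kinases and STAT transcription factors.

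Libraries held 28354321 counts (GFP+) and 27221562 counts (GFP-) in the poly(A) pair. The single-cell protocol gave 17539208 and 17601420 counts in GFP+ cells and 16317061 and 15224051 in GFP- cells. Prdm1, the gene of Blimp-1, was higher in GFP+ cells by 3.93 ± 0.27 on the log2 scale (SE; edgeR adjusted p = 7.3e-05). Of 8 tested T cell and Treg markers, 1 (Ctla4) was higher in GFP+ cells and none was lower. Of all tested genes, 9.81% were higher and 3.68% lower. With DESeq2, and with limma on the authors' deposited log2 RPKM values, 1 marker was lower. Il2ra, the gene of CD25, had -0.64 ± 0.23 (edgeR adjusted p = 0.111), and Foxp3 differed by 0.21 ± 0.31 (edgeR adjusted p = 0.710). Myeloid markers were present in the GFP+ libraries. All 14 tested ones were higher there, and their summed level in CPM (counts relative to the TMM-scaled library size) was 804 (replicate 19), 1618 (replicate 1) and 2028 CPM (replicate 4) in GFP+ cells, against 19.6 (replicate 20), 39.1 (replicate 2) and 64.8 CPM (replicate 5) in GFP- cells. Itgam was at 0 in GFP- replicate 2, and Itgam and Cd14 were at 0 in GFP- replicate 5. In these sorted pools, more cells of a type and more RNA of a gene in each cell cannot be told apart, and the part of these markers in the results below was not tested.

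Il6ra, Il27ra, Il12rb1 and Il12a had no count in any single-cell protocol library. They lie on chromosomes 3 and 8, and on these chromosomes and chromosome 9 almost no gene had a count in that table (2 of 1092 genes on chromosome 3 did, none of 1115 on chromosome 8 and none of 1300 on chromosome 9). These 4 genes were therefore read from the poly(A) pair alone, with 1 library of each population and no test. Their zeros in the single-cell table were not read as absence of RNA.

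Of the 250 bases before the annotated gene start, RefSeq windows (assembly GRCm38.p6) were matched for 6 of the 8 genes, all but Il27ra and Il12rb1. Il12rb1, for which none was matched, was also higher in the GFP+ library of the poly(A) pair. The windows of Il6st and Il6ra, both lower in GFP+ cells, and of Ebi3, higher in GFP+ cells, are shown. Each is written 5' to 3' on the gene's strand, with CG dinucleotides in capitals: Il6st at chr13:112463820-112464069 on the plus strand, Il6ra at chr3:89913197-89913446 on the minus strand and Ebi3 at chr17:55952373-55952622 on the plus strand.
Il6st: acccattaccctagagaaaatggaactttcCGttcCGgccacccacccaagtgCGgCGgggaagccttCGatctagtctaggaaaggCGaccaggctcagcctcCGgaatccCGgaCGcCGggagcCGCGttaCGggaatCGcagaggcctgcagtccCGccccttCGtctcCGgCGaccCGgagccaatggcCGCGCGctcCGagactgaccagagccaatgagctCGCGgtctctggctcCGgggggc
Il6ra: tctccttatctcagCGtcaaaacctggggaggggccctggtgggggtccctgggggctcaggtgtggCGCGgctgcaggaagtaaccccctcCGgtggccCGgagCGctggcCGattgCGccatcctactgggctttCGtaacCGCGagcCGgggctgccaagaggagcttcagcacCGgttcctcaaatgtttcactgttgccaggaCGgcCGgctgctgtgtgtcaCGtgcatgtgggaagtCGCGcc
Ebi3: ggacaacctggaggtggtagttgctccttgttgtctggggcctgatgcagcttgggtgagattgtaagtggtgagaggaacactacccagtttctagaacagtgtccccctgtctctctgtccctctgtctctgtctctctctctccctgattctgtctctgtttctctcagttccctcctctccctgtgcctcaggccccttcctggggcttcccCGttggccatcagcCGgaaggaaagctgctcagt

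The windows of Il6st and Il6ra held 26 and 18 CG dinucleotides, more than 90.4% and 78.3% of all windows. Over all 32851 windows the median was 6. The Ebi3 window held 2 and the Il23r window 1, and 18.8% and 7.87% of windows held fewer. The Il12rb2 window held 10, and the windows of the 2 annotated Il12a starts held 2 and 15. Whether CG content goes with the direction of change was not tested. Both strands were searched for a STAT site (TTCNNNGAA, in 7.02% of all windows), an AP-1 site (TGANTCA, 6.749%), a Blimp-1 core (AGNGAAAG, 7.3%) and a tandem interferon regulatory factor element (2.977%). None of these letters occurred in the Il6st, Il6ra, Il23r or Ebi3 window. The Il12rb2 window had a STAT match, TTCTCAGAA, that starts 123 bases before the gene start, and the window of the second Il12a start had a Blimp-1 core on the opposite strand, CTTTCGCT, 139 bases before it.

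The mRNAs of gp130 and of its IL-6-binding partner were lower in GFP+ Treg, Il6st in both protocols and Il6ra in the poly(A) pair. Il6st had 79.7 (replicate 19), 125 (replicate 1) and 88.0 CPM (replicate 4) in GFP+ cells, against 191 (replicate 20), 238 (replicate 2) and 201 CPM (replicate 5) in GFP- cells. Within each protocol every GFP+ library was below every GFP- library. Across protocols this held with TMM scaling but not relative to library totals (138 CPM in GFP+ replicate 19, 104 CPM in GFP- replicate 5). In the model of all 6 libraries, which also fits the protocol, Il6st fell by 1.12 ± 0.25 on the log2 scale (SE, n = 3 each; 95% interval -1.69 to -0.55; edgeR adjusted p = 0.0184). It was thus among the 3.68% of 10523 tested genes called lower in GFP+ cells, of 13.5% called in either direction. The call was lost, with the direction kept, when GFP- replicate 20, GFP+ replicate 19 or GFP+ replicate 4 was left out (edgeR adjusted p = 0.214, 0.227 and 0.106). Here and below, leaving out replicate 19 or replicate 20 is in effect the same fit, since the protocol term absorbs the poly(A) library that remains. Both gave Il6st at -1.05, from the single-cell protocol libraries alone. In the single-cell protocol alone the log2 fold change was -1.06 ± 0.43 (n = 2 each; edgeR adjusted p = 0.220), and in the poly(A) pair the log2 ratio was -1.26 (95% counting interval -1.32 to -1.21). The interaction of population and protocol was 0.22 ± 0.73 for Il6st (edgeR adjusted p = 1.00). Of 10523 genes, 0 were called and 24 had an unadjusted p under 0.05, far fewer than such a threshold gives by chance. That fit had 2 residual degrees of freedom and 1 poly(A) library of each population. It could hardly call a difference, so its result was not read as agreement between the protocols.

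**Figure D1:**
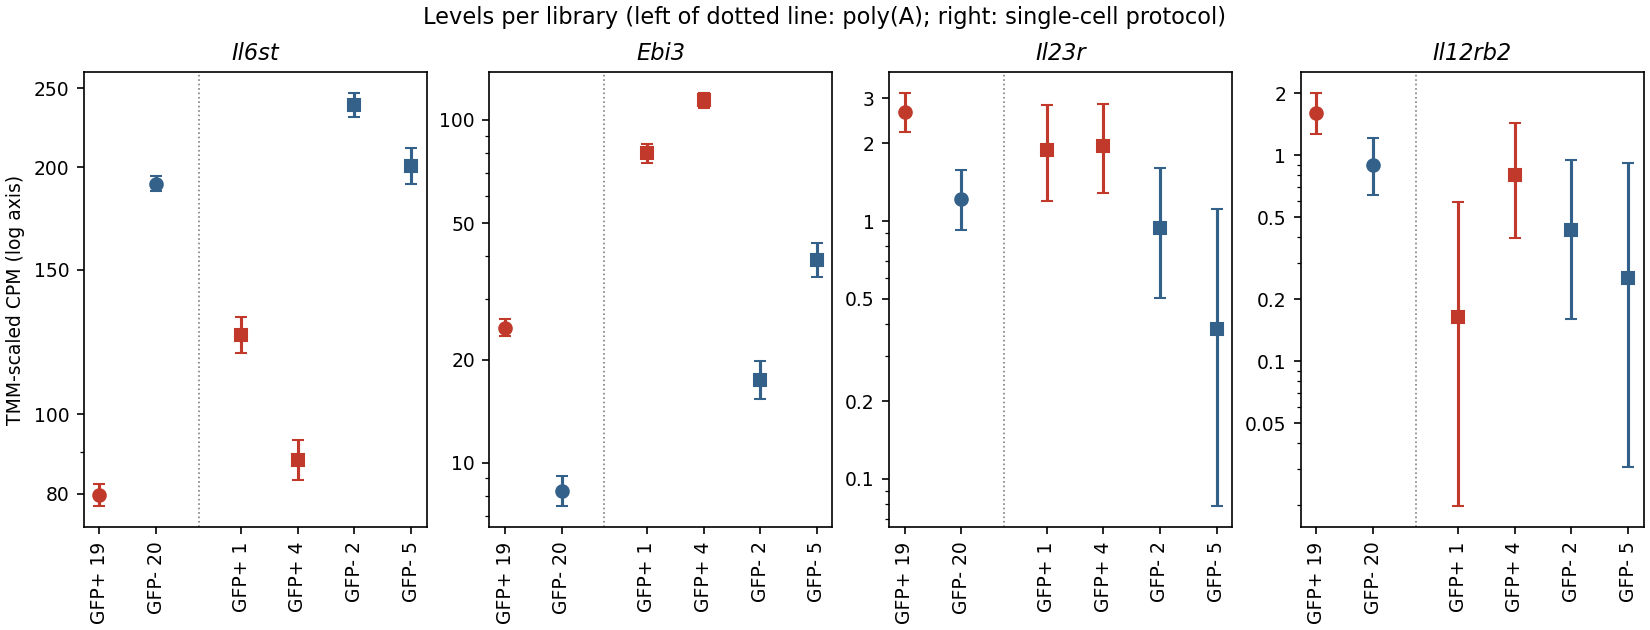
TMM-scaled CPM (log axis) of Il6st, Ebi3, Il23r and Il12rb2 in each library, GFP+ in red and GFP- in blue, circles for the poly(A) and squares for the single-cell protocol. Bars are 95% Poisson intervals of the count. The 3 GFP+ libraries lie below the 3 GFP- libraries for Il6st, and within each protocol above them for Ebi3 and Il23r.

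Il6ra was read from the poly(A) pair, where its level was 99.7 CPM in GFP+ cells, against 226 CPM in GFP- cells (4900 against 10396 counts). The log2 ratio was -1.18 (95% counting interval -1.23 to -1.13), about the size of the Il6st ratio in the same pair, and it was -1.79 in the authors' deposited log2 RPKM values. The ratio of Il6ra to Il6st per gene length was 2.04 (95% counting interval 1.96 to 2.13) in GFP+ cells and 1.93 (1.87 to 1.98) in GFP- cells. Counting intervals cover sampling of reads only, so the spread between animals is not known for any gene read from the pair.

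Il27ra, whose product pairs with gp130 to bind IL-27, stood apart from these genes in that its level was almost equal in the pair. It was 227 CPM in GFP+ cells and 209 CPM in GFP- cells, a log2 ratio of 0.12 (95% counting interval 0.08 to 0.16). The ratio of Il27ra to Il6st per gene length was 5.85 in GFP+ cells and 2.25 in GFP- cells. Both ratios are of mRNA levels and carry counting error only.

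The mRNA of the chain shared by the IL-12 and IL-23 receptors was higher in GFP+ Treg of the pair. Il12rb1 had 156 CPM in GFP+ cells, against 58.6 CPM in GFP- cells (7664 against 2695 counts), a log2 ratio of 1.41 (95% counting interval 1.35 to 1.48), and 2.05 in the authors' deposited log2 RPKM values. Il23r, which completes the IL-23 receptor, had 2.64 (replicate 19), 1.88 (replicate 1) and 1.96 CPM (replicate 4) in GFP+ cells, against 1.22 (replicate 20), 0.942 (replicate 2) and 0.380 CPM (replicate 5) in GFP- cells. Within each protocol every GFP+ library was above every GFP- library, on few counts: 130, 23 and 27 against 56, 13 and 3. Across protocols this held with TMM scaling but not relative to library totals. On that scale GFP- replicate 20 had 2.06 CPM, above GFP+ replicates 1 (1.31 CPM) and 4 (1.53 CPM). The log2 fold change across 6 libraries was 1.29 ± 0.38 (95% interval 0.43 to 2.15), which did not pass the threshold in edgeR (adjusted p = 0.0579). It passed without the filter on low counts, with DESeq2 and with limma-voom (adjusted p = 0.0266, 0.0290 and 0.0476). In the single-cell protocol alone it was 1.42 ± 0.61 (edgeR adjusted p = 0.259).

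Il12rb2, which completes the IL-12 receptor and in T cells is known from the T helper 1 lineage, was low in all libraries and showed no called difference. It had 1.61 (replicate 19), 0.164 (replicate 1) and 0.798 CPM (replicate 4) in GFP+ cells, against 0.891 (replicate 20), 0.435 (replicate 2) and 0.253 CPM (replicate 5) in GFP- cells, and the groups overlapped. The counts were 79, 2 and 11 against 41, 6 and 2. The log2 fold change was 0.68 ± 0.54 (95% interval -0.54 to 1.90; edgeR adjusted p = 0.471), an interval that spans changes of either sign, and it was 0.04 in limma on the authors' deposited log2 RPKM values. In the pair the log2 ratio was 0.85 (95% counting interval 0.29 to 1.43). Il12rb1 exceeded Il12rb2 by a ratio of 99.5 per length in GFP+ cells and 67.4 in GFP- cells, and exceeded Il23r by 51.1 and 41.7.

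**Figure D2:**
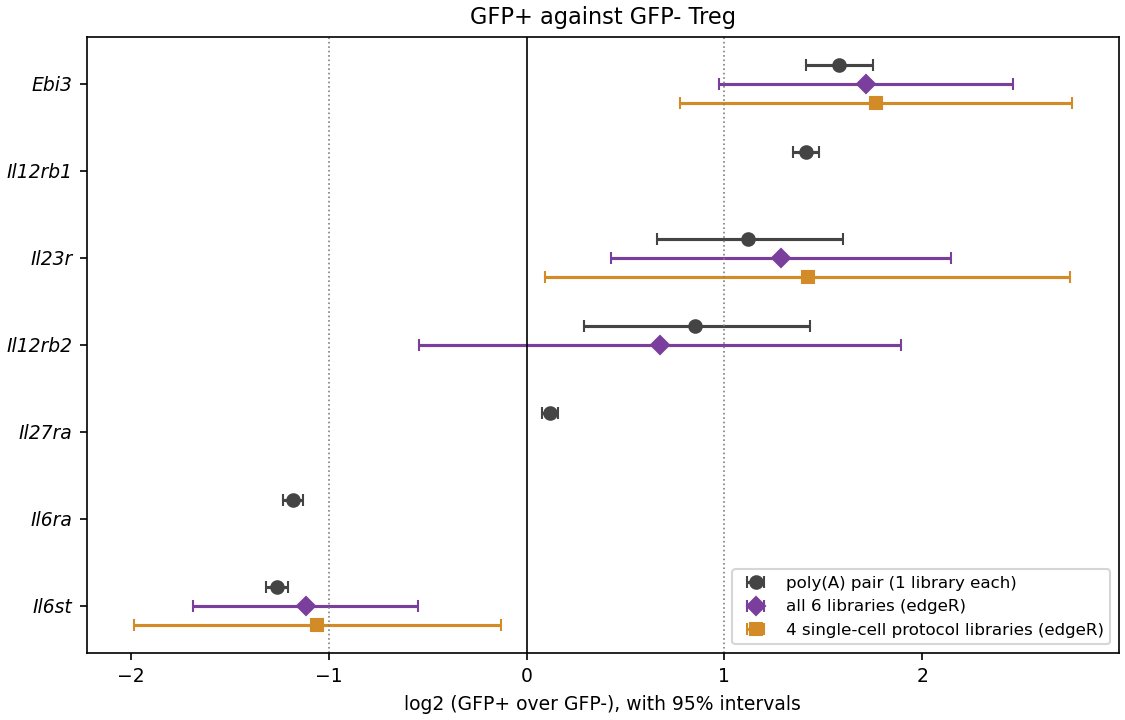
Log2 ratio of GFP+ over GFP- for each gene with 10 or more counts in the pair, with 95% intervals: the poly(A) pair (counting error only), all 6 libraries and the 4 single-cell protocol libraries. Dotted lines mark a log2 ratio of 1 in either direction. Il6st and Il6ra lie to the left of 0, Il27ra close to it, and Ebi3, Il12rb1, Il23r and Il12rb2 to the right.

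Of the cytokine chains, Ebi3 was higher in GFP+ Treg and Il12a was barely detected. Ebi3 had 24.8 (replicate 19), 79.9 (replicate 1) and 114 CPM (replicate 4) in GFP+ cells, against 8.28 (replicate 20), 17.5 (replicate 2) and 39.1 CPM (replicate 5) in GFP- cells. Within each protocol the populations did not overlap, while across protocols GFP+ replicate 19 was below GFP- replicate 5. Ebi3 rose by 1.72 ± 0.33 on the log2 scale across 6 libraries (SE, n = 3 each; 95% interval 0.97 to 2.46; edgeR adjusted p = 0.00864), beside 9.81% of tested genes called higher. Of the 4 tested genes of the set, 1 was called higher and 1 lower, and their median log2 fold change was 0.98, beside -0.08 over all tested genes. Leaving out replicate 19 or replicate 20 is in effect the same fit for Ebi3 too. The Ebi3 call held when each library was left out in turn (1.40 to 2.08, edgeR adjusted p from 0.000659 to 0.0354). In the single-cell protocol alone it was 1.77 ± 0.46 (n = 2 each; edgeR adjusted p = 0.0342), the single called member of 3 tested, where 6.95% of 10236 genes were called and 5.54% were higher. That call was lost without GFP- replicate 2 or GFP+ replicate 4 (edgeR adjusted p = 0.106 and 0.238). The pair gave a log2 ratio of 1.58 (95% counting interval 1.41 to 1.75).

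B cells also make Ebi3, and of 8 tested B and plasma cell markers, 2 (Blk and Sdc1) were higher in GFP+ cells, where 9.81% of all tested genes were. That count was 1 without GFP+ replicate 19, 1 or 4 or GFP- replicate 20, and 3 without GFP- replicate 5. The summed level of that list was 104 (replicate 19), 236 (replicate 1) and 454 CPM (replicate 4) in GFP+ cells, against 57.3 (replicate 20), 140 (replicate 2) and 196 CPM (replicate 5) in GFP- cells. The myeloid markers moved further, with all 14 tested ones higher in GFP+ cells. Their median log2 fold change was 5.50, beside 0.94 for the B and plasma cell list. The part of either list in the Ebi3 result was not tested. Ebi3 overlaps Zfp119b and the long noncoding RNA Gm16712 in the RefSeq annotation, and strand was not stated. Gm16712 had 445 (replicate 19), 18 (replicate 1) and 13 counts (replicate 4) in GFP+ cells, against 160 (replicate 20), 12 (replicate 2) and 3 (replicate 5) in GFP- cells. Its log2 fold change was 1.12 (edgeR adjusted p = 0.0963), and Zfp119b had -0.19 (adjusted p = 0.728). Il27ra with Palm3, Il6ra with Gm46811 and Il12rb2 with Serbp1 likewise overlap, and Serbp1 was far above Il12rb2 in the pair (10952 counts in GFP+ and 11664 in GFP- cells).

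Il12a, the partner of Ebi3 in IL-35, had 3 counts in the GFP+ library and 4 in the GFP- library of the pair. The ratio of the levels was 0.702, with a 95% counting interval of -3.28 to 2.05 on the log2 scale. Ebi3 exceeded Il12a per length by 475 in GFP+ cells (95% counting interval 162 to 2305) and 111 in GFP- cells (43.2 to 411). Within the pair, 5 of the 7 genes with at least 10 counts in sum passed a log2 ratio of 1 in size, against 21.7% of 15722 genes. Ebi3, Il12rb1 and Il23r were higher (13.9% of genes were) and Il6st and Il6ra were lower (7.78%).

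Levels per gene length in the pair, as RPKM (CPM per kilobase of gene length), put Il27ra first in both populations, at 85.6 in GFP+ cells and 78.8 in GFP- cells. In GFP+ cells Il12rb1 (54.3), Il6ra (29.8), Ebi3 (21.1) and Il6st (14.6) followed, and Il23r (1.06), Il12rb2 (0.545) and Il12a (0.0445) were far below. In GFP- cells the order was Il6ra (67.6), Il6st (35.0), Il12rb1 (20.4), Ebi3 (7.07), Il23r (0.489), Il12rb2 (0.302) and Il12a (0.0634). Il12rb1 and Ebi3 thus stood above Il6st in GFP+ cells and below it in GFP- cells. Neighbours in these orders differed beyond their counting intervals, except Il23r and Il12rb2 in GFP- cells (0.369 to 0.635 and 0.217 to 0.410). The 8 ranks were the same with the authors' deposited log2 RPKM values.

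**Figure D3:**
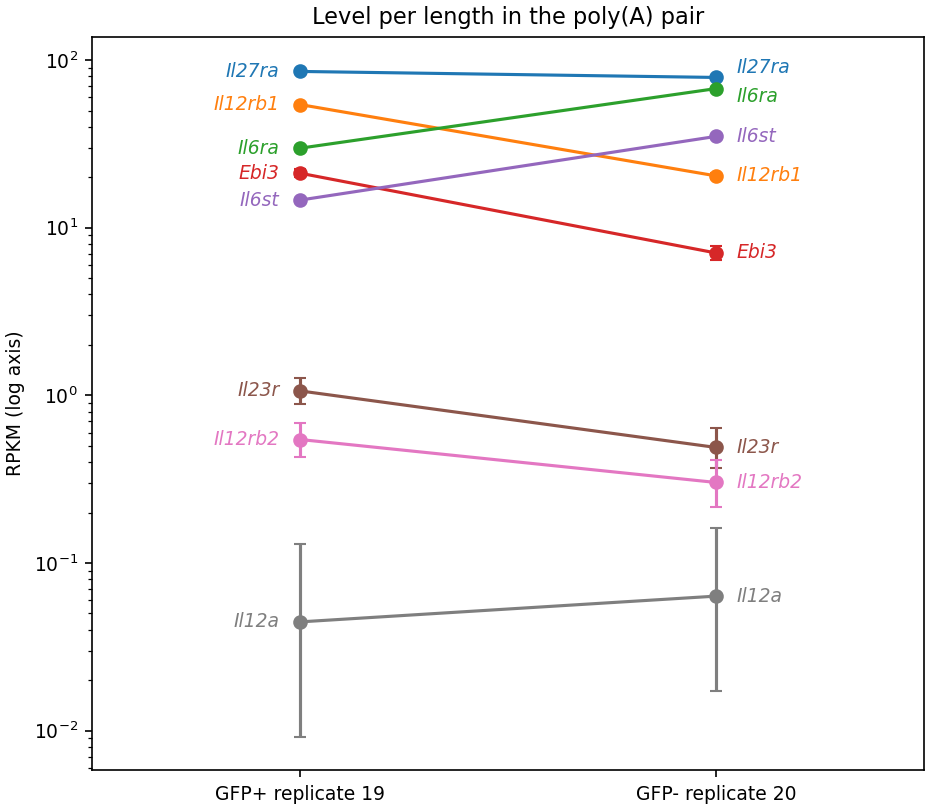
RPKM of the 8 genes in the poly(A) pair (log axis), GFP+ replicate 19 on the left and GFP- replicate 20 on the right, with 95% counting intervals. The Il6st line crosses those of Ebi3 and Il12rb1, the Il6ra line crosses that of Il12rb1, and Il12a is lowest in both.

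The level of Ebi3 relative to Il6st, measured within a library, was available in both protocols. It was 1.45 (replicate 19), 1.64 (replicate 1) and 3.32 (replicate 4) in GFP+ cells, against 0.202 (replicate 20), 0.188 (replicate 2) and 0.499 (replicate 5) in GFP- cells. Ebi3 exceeded Il6st in every GFP+ library and was below it in every GFP- library. The single-cell table lists Il6st at 3000 bases, which caps its length. With the length of the poly(A) table the single-cell ratios were 2.98 and 6.03 in GFP+ replicates 1 and 4, against 0.341 and 0.907 in GFP- replicates 2 and 5, and the interval of the last (0.800 to 1.02) includes 1.

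**Figure D4:**
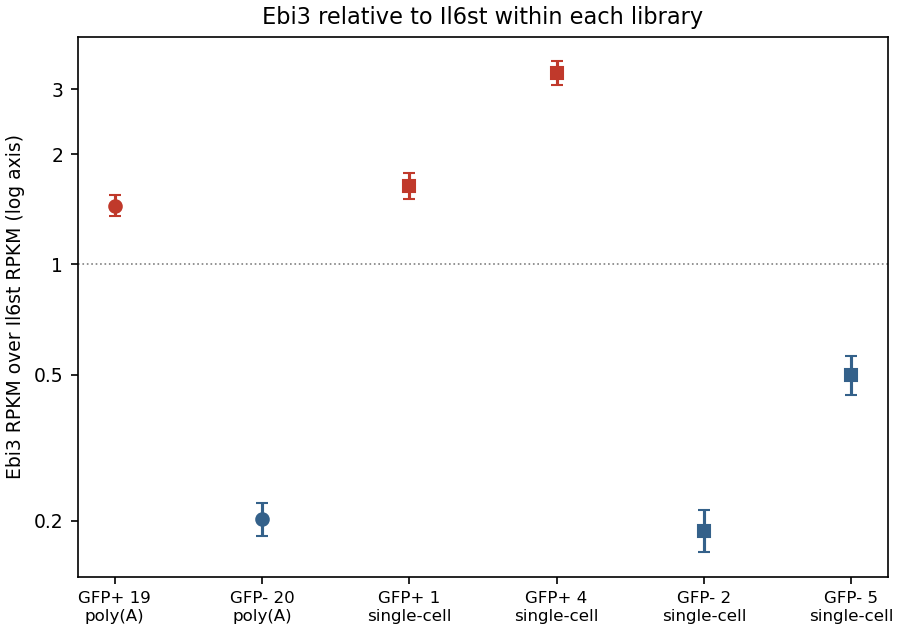
Ratio of Ebi3 RPKM to Il6st RPKM (log axis) in each library, GFP+ in red and GFP- in blue, with 95% counting intervals and a dotted line at 1. The 3 GFP+ libraries lie at 1.45 to 3.32 and the 3 GFP- libraries at 0.188 to 0.499.

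The other genes of the pathway were taken from lists. A list of related receptor chains had 2 of 7 genes tested and none called; 2 others had no single-cell counts and 3 were under the filter. Crlf2, a chain of the receptor for thymic stromal lymphopoietin, which does not use gp130, had a log2 fold change of 1.18 ± 0.38 (edgeR adjusted p = 0.0778). It passed the threshold without GFP- replicate 5 (1.66, edgeR adjusted p = 0.00380), without the filter on low counts (adjusted p = 0.00101) and with scaling by library totals (adjusted p = 0.00579). Il11ra1, the IL-11 receptor chain, had -0.32 ± 0.37. In the list of ligands 3 of 11 genes were tested (4 had no single-cell counts and 4 were under the filter) and 2 fell, where 3.68% of all tested genes were lower. The median log2 fold change of the 3 was -1.03, beside -0.08 over all tested genes. Lif, the leukaemia inhibitory factor that signals through gp130, fell by 2.45 ± 0.36 (edgeR adjusted p = 0.00245). It had 1.18 (replicate 19), 0.409 (replicate 1) and 0.363 CPM (replicate 4) in GFP+ cells, against 8.0 (replicate 20), 1.74 (replicate 2) and 1.52 CPM (replicate 5) in GFP- cells. Clcf1, a ligand of the ciliary neurotrophic factor receptor complex, fell by 1.03 ± 0.27 (edgeR adjusted p = 0.0390). The Lif call was lost without GFP+ replicate 19 or GFP- replicate 20 (adjusted p = 0.0713 and 0.0944), and the Clcf1 call without GFP+ replicate 19, 1 or 4 or GFP- replicate 20 (0.181, 0.135, 0.151 and 0.201). The leave-outs of replicates 19 and 20 are in effect the same fit. The third tested ligand, Osm, had -0.32 ± 0.23 (edgeR adjusted p = 0.422).

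Of 14 signalling genes, 9 were tested, 1 fell and none rose, so that 1 of 9 stood beside 13.5% of all tested genes called in either direction and 3.68% called lower. Their median log2 fold change was -0.23, beside -0.08 over all tested genes. Socs3, the feedback inhibitor that binds gp130 and is induced by STAT3, fell by 1.30 ± 0.28 (edgeR adjusted p = 0.0151). It had 85.6 (replicate 19), 16.4 (replicate 1) and 27.1 CPM (replicate 4) in GFP+ cells, against 163 (replicate 20), 52.9 (replicate 2) and 69.5 CPM (replicate 5) in GFP- cells. The call was lost without GFP+ replicate 1 (edgeR adjusted p = 0.0626). The other 8 tested genes did not pass the threshold and lay between Stat4 and Adam17. Stat4, which signals downstream of IL-12, had -0.79 ± 0.31 (edgeR adjusted p = 0.137), and passed without GFP- replicate 5 (-1.05, edgeR adjusted p = 0.0142). Adam17, a protease that sheds membrane receptors including the IL-6 receptor, had 0.53 ± 0.23 (edgeR adjusted p = 0.180). Of the 5 signalling genes read from the pair alone, 1 was higher past the fold, beside 13.9% of genes in the pair. It was Gab1, an adaptor that couples gp130 to other pathways. Gab1 had 31 counts in the GFP+ library and none in the GFP- library, at least 9.67-fold higher against a floor of 3 counts. Tyk2 (log2 ratio 0.36), Pias3 (0.70), Pias1 (-0.19) and Adam10 (-0.09) did not pass the fold.

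**Figure D5:**
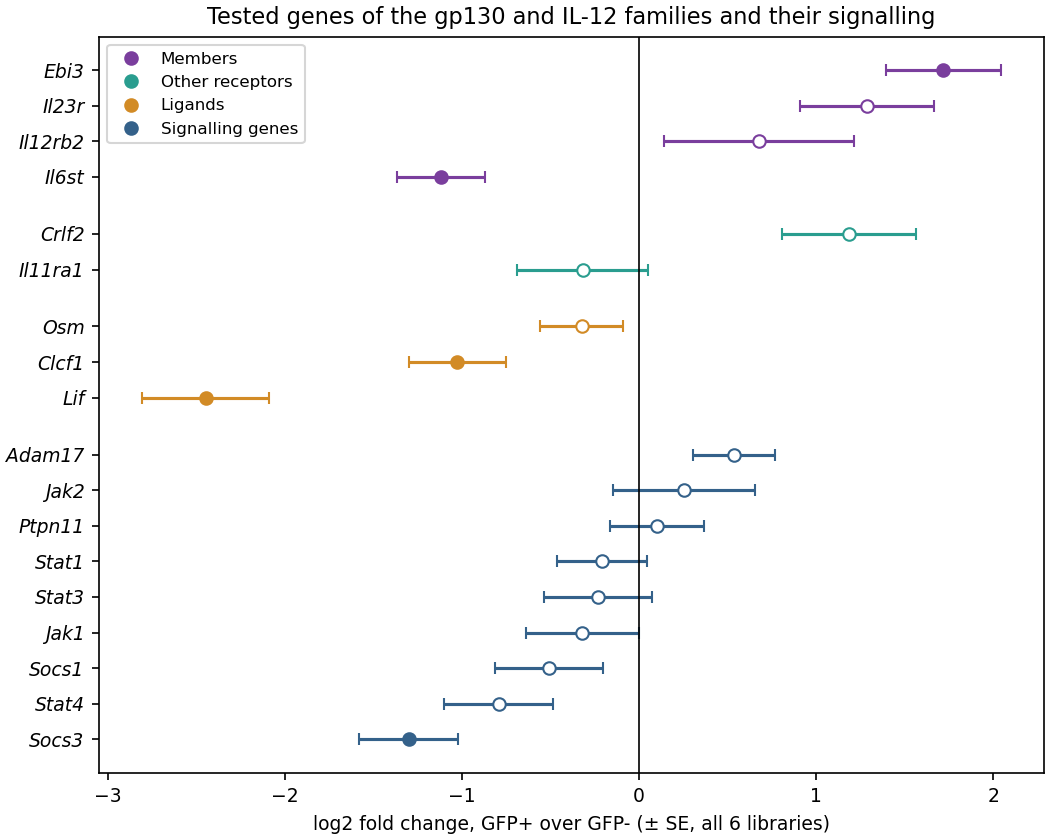
Log2 fold change of GFP+ over GFP- (± SE) for the tested genes of the receptor set and the 3 related lists, in all 6 libraries. Filled points passed an edgeR adjusted p of 0.05 and open points did not. Lif, Socs3, Il6st and Clcf1 lie to the left of 0 with filled points and Ebi3 lies to the right.

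The genes with the pattern most like Il6st, by root mean square difference in log2 CPM centred within each protocol over 6 libraries, were Trbv3 (0.0738), Rassf2 (0.131) and Dpp4 (0.133). Their log2 fold changes were -0.99, -1.15 and -0.97. For Ebi3 they were Creg1 (0.0568), Slc16a3 (0.128) and Pdcd1 (0.136), with log2 fold changes of 1.82, 1.59 and 1.63. The measure was taken over 6478 candidate genes with at least 10 CPM on average.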

How the data were processed

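RNA was sequenced from 3 GFP+ and 3 GFP- samples described as biologically independent in the study's design. With protocol as a covariate, p-values rest on the spread within the single-cell replicate pairs and on how the population effect differs between protocols. The poly(A) pair adds no spread between replicates of its own. For each protocol, the authors deposited a table of raw counts per Entrez gene, with gene lengths, and log2 RPKM values per library, per the file headers. Per the submitters' processing notes, Subread, featureCounts, edgeR and build mm9 were used; the sources used here do not give versions or strand. Chromosomes and overlapping genes came from RefSeq of assembly GRCm38.

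Counts were tested with edgeR 4.0.16 (R 4.3.3, limma 3.58.1; DESeq2 1.42.0 as an alternative): filterByExpr (10523 genes), TMM scaling, the quasi-likelihood F-test with protocol as a covariate and 3 residual degrees of freedom, and Benjamini-Hochberg adjustment over these genes (threshold 0.05). TMM factors ranged between 0.519 and 0.846, except 2.06 and 2.02 in the GFP+ and GFP- libraries of the pair. RPKM were computed from counts and each table's lengths, which the single-cell table caps at 3000 bases for all but 1 gene. The pair has no test: Poisson intervals cover counting error only, and a gene was past the fold at a log2 ratio of 1 in size and 10 counts in sum. Single-cell replicate pairs differed beyond counting noise (chi-square per degree of freedom 88.9 in GFP+ and 183 in GFP-). The procedure was also run on simulated independent counts, with the same dispersion in both protocols and no batch. That run does not show how well the procedure works on these libraries. The genes of the set and all lists were chosen with earlier results of these data known. From each list the genes named were those past the threshold or the fold, up to 5, plus genes that complete a count; Stat4 and Adam17 were named after their values were seen.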

Additional observations from a re-analysis of the deposited data

How the results depend on the processing

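The population effect of each gene of the set kept its direction under every alternative run. Without the protocol covariate, 139 genes passed in place of 1419, Il6st gave -1.11 (adjusted p = 0.532) and Ebi3 1.76 (adjusted p = 0.629), and the Lif, Clcf1 and Socs3 calls were lost (adjusted p = 0.387, 1.00 and 0.996). Without the filter on low counts 2500 genes passed; DESeq2 called 1915, of which 62.7% were higher against 72.7% in edgeR, and the authors' log2 RPKM in limma called 1468, of which 62.8% were higher. Il23r passed without the filter (1.28), with DESeq2 (1.28) and with limma-voom (1.28). Leaving out a library gave between 703 (without GFP+ replicate 19) and 2015 genes (without GFP- replicate 5), Il6st between -1.29 and -1.004 and Ebi3 between 1.40 and 2.08. In the single-cell protocol the count lay between 423 (without GFP+ replicate 4) and 1054 (without GFP- replicate 5) around 711, and Ebi3 between 1.29 and 2.47. A leave-out that leaves 1 library in a population assumes that it varies like the other population. Genes past the fold in the pair numbered 1503 with 1 CPM added and 2258 with at least 50 counts, in place of 3411; with the authors' log2 RPKM, 52.4% of calls were higher against 64%. Il23r fell below the fold there with 1 CPM added (0.72) and with the authors' log2 RPKM (0.90), in which Il6st was at -1.67, Il6ra -1.79, Il27ra 0.33, Il12rb1 2.05 and Ebi3 2.03; Il12rb2 across 6 libraries was at 0.04 with those values. Scaling by library totals alone, chosen after seeing the data, called 1351 genes and ended the Clcf1 call (adjusted p = 0.181). No paired analysis was fitted, because the populations share no replicate number and the labels pair no samples. The titles number GFP+ and GFP- libraries of a protocol consecutively (19 and 20, 1 and 2, 4 and 5). Whether these numbers mark shared mice or batches is not stated, and the tests would ignore such a pairing. Depth limits Il12a, Il12rb2 and Il23r.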

Other observations

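The authors' deposited log2 RPKM files list values for the genes without single-cell counts, between -4.84 for Il6ra and -2.79 for Il12a in the single-cell protocol libraries. Of the ligands without a test, Il27 had 5 counts in the GFP+ poly(A) library and 0 in the other 5 libraries, and Il23a had none in any library. Of the markers of CD8 T and natural killer cells, 2 of 4 tested, Cd8a and Ncr1, were lower in GFP+ cells, where 3.68% of all tested genes were. Neither call held without GFP+ replicate 1, GFP+ replicate 19 or GFP- replicate 20, and 1 held without GFP+ replicate 4. Both markers read from the poly(A) pair alone, Eomes (log2 ratio -3.32) and Cd160 (-1.45), were lower past the fold, beside 7.78% of genes in the pair. Of the dendritic cell markers 1 of 3 tested, Itgax, was higher, where 9.81% of all tested genes were. Of those read from the pair alone with at least 10 counts in sum, Xcr1 (2.09) was past the fold and Ccr9 (0.63) was not, beside 13.9% of genes higher in the pair.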
